A study of Mus musculus with 3 samples.

Results

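The miR-17 and miR-19 seed families were followed in the serum of mice carrying 4T1 mammary tumours. The members were the 6 rows of a 566-probe serum miRNA table that carry these names, read without the species prefix. miR-106b, miR-93 and a pair of shared probes, of which one reads miR-106a and miR-17 and the other miR-20a and miR-20b, make up the miR-17 family (4 probes), and miR-19a and miR-19b make up the miR-19 family (2 probes). The members were taken by name.

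4T1 is a BALB/c line used as a model of triple-negative breast cancer. Each female BALB/c mouse, bought at 6 to 8 weeks of age, received 100000 cells in a mammary fat pad and was killed on day 28. The Tn+ group carried 4T1 cells in which Cosmc, the chaperone that the enzyme extending O-glycans needs, had been targeted with CRISPR/Cas9, so that the truncated glycan Tn is exposed. The Tn- group is labelled only as mice with Tn- tumours. Whether the Tn- cells carry a control edit, or the edited line is 1 clone, is not given in the sources used here. Serum was pooled within each group before RNA extraction, giving 2 Tn+ pools and 1 Tn- pool. Those sources give at least 8 mice per group, but not the number of mice in each pool. The question put to these pools is whether circulating miRNA changes with tumour Tn status.

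A miRNA finds its targets mainly through its seed, bases 2 to 8 from the 5′ end, so miRNAs with the same seed share most predicted targets. The miR-17 and miR-19 families are made from 3 related gene clusters whose primary transcripts are cut into several hairpins. Myc and E2f factors activate these clusters. The miR-17 family restrains cell cycle inhibitors such as Cdkn1a. The miR-17 cluster is amplified or overexpressed in several human cancers. In blood the same miRNAs are abundant in red cells, platelets and white cells, which can release them into serum.

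The mature sequences are shown because the probes had to tell near-identical molecules apart. They are from RefSeq (GRCm38.p6), 5′ to 3′, with the seed in capitals, and all 6 member probes could be matched, to 8 mature miRNAs.
miR-17-5p: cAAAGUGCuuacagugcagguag
miR-106a-5p: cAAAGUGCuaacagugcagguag
miR-20a-5p: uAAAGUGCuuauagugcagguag
miR-20b-5p: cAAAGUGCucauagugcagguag
miR-106b-5p: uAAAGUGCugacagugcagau
miR-93-5p: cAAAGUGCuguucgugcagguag
miR-19a-3p: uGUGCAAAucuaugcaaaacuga
miR-19b-3p: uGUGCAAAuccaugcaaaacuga
The 6 miRNAs of the miR-17 family had the same base at 15 of the 21 positions they all have. Counting from 1 at the 5′ end, miR-17 and miR-106a, which share a probe, differ by U10A. The other pair on a shared probe, miR-20a and miR-20b, differs by U1C and U10C. miR-19a and miR-19b have separate probes and are the same at 22 of 23 positions, differing by U11C. Whether a probe also caught a close relative was not tested, so values of related probes may not be independent.

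The clusters lie on 3 chromosomes of GRCm38.p6. The miR-17 cluster, at chr14:115043671-115044506 on the plus strand, encodes miR-17, miR-18a, miR-19a, miR-20a, miR-19b and miR-92a in this order. The miR-106a cluster, at chrX:52741693-52742567 on the minus strand, encodes miR-106a, miR-18b, miR-20b, miR-19b, miR-92a and miR-363. The miR-106b cluster, at chr5:138165321-138165818 on the minus strand, encodes miR-106b, miR-93 and miR-25 and lies within the span of the protein-coding gene Mcm7, which encodes a subunit of the replicative helicase. Mature miR-19b is identical from its chromosome 14 and X genes. Because of this and of the shared probes, no member of the miR-17 cluster other than miR-19a could be assigned to chromosome 14 alone.

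Values are the authors' normalized signal in arbitrary units. Of the 566 probes, 307 were at the lowest deposited value of the pool (the floor, about 1 unit) in all pools and 58 had a mean of at least 10 units. Summed signal was 59444 and 31977 units in the Tn+ pools, against 4204 units in the Tn- pool, so every ratio on the deposited scale includes a large shift between pools. Above the floor, low values were spaced regularly, by 0.896 and 1.09 units in the Tn+ pools and by 1.08 units in the Tn- pool, and these spacings are called grid steps. The number of pools and the low signal in the Tn- pool limit precision. Nothing in the labels says that the Tn+ pools came from separate mice, so p-values rest only on the spread between these pools, which may be technical. In several fits below the members shared a common spread, so their p-values there do not measure the spread of each probe.

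All 6 members had more signal in both Tn+ pools than in the Tn- pool. The probe shared by miR-20a and miR-20b had the highest signal of the family, with 1364 and 515 units in the Tn+ pools, against 50.1 units in the Tn- pool. Among all probes it had rank 5 in Tn+ pool 1, rank 7 in Tn+ pool 2 and rank 9 in the Tn- pool. Both Tn+ values were thus well above the Tn- value, and they averaged 939 ± 599.9 units (SD, n = 2).

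The probe shared by miR-106a and miR-17 had 506 and 146 units in the Tn+ pools, against 30.7 units in the Tn- pool. Its Tn+ mean was 326 ± 254 units (SD, n = 2), so the spread between the Tn+ pools was large beside their distance from the Tn- pool. On the signal scale it was 16.5-fold and 4.77-fold above the Tn- pool in Tn+ pool 1 and Tn+ pool 2. For the miR-20a and miR-20b probe these ratios were 27.2-fold and 10.3-fold.

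miR-106b, the most 5′ miRNA of the cluster within Mcm7, had 201 and 53.9 units in the Tn+ pools and was at the floor (1.08 units) in the Tn- pool. miR-93, its neighbour, had 38.4 and 21.3 units in the Tn+ pools and was likewise at the floor in the Tn- pool. Set against 3 grid steps in the Tn- pool (3.23 units), which is no lower limit because the subtracted background is unknown, miR-106b was 62.3-fold and 16.7-fold higher and miR-93 was 11.9-fold and 6.59-fold higher. Tn+ means were 128 ± 104 units for miR-106b and 29.8 ± 12.1 units for miR-93 (SD, n = 2 each).

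In the miR-19 family, miR-19a had 93.9 and 30.0 units in the Tn+ pools, against 3.73 units in the Tn- pool, where it stood only 2 grid steps over the lowest value above the floor. miR-19b had 28.5 and 22.4 units in the Tn+ pools, against 10.2 units in the Tn- pool, 8 steps over that value. miR-19b had the smallest ratio of the 6 members, 2.80-fold and 2.19-fold in the Tn+ pools. For miR-19a the ratios were 25.2-fold and 8.04-fold. The Tn+ means were 61.9 ± 45.2 units for miR-19a and 25.5 ± 4.36 units for miR-19b (SD, n = 2 each).

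**Figure D1:**
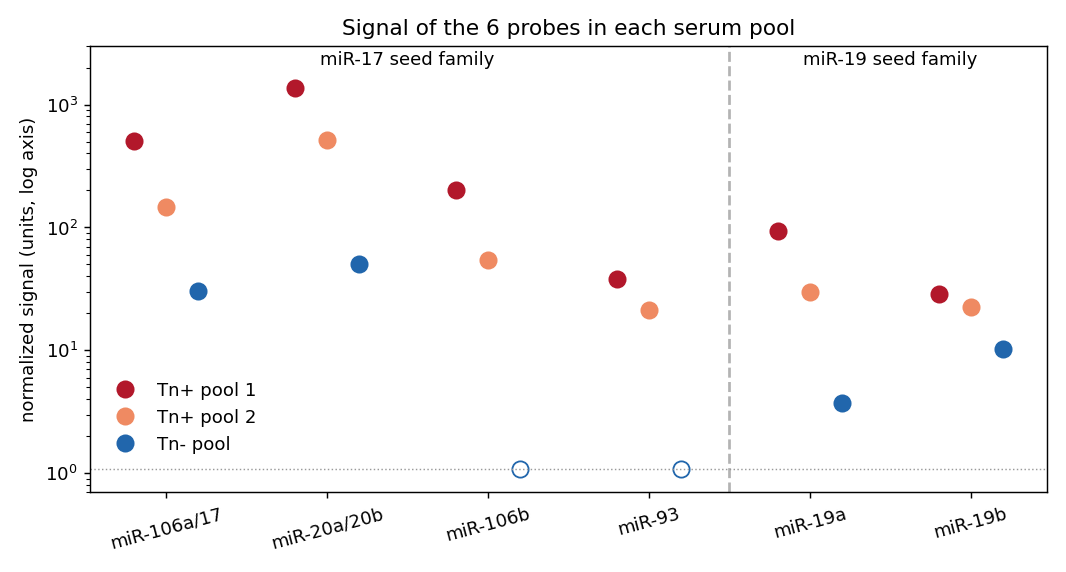
Normalized signal (log axis) of the 6 probes in both Tn+ pools and the Tn- pool, 1 point per pool, with open circles for values at the floor and a dotted line at 1.08 units. Every member has its 2 Tn+ points above its Tn- point, the gap is smallest for miR-19b (28.5 and 22.4 against 10.2 units), and miR-106b and miR-93 are at the floor in the Tn- pool.

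The 2 Tn+ pools were also unequal, in the same order for each member. Pool 1 was above pool 2 for 6 of 6 members, by 1.28-fold (miR-19b) to 3.73-fold (miR-106b), while it was above for 30 of the 58 probes with a mean of at least 10 units (51.7%). The summed signal of the miR-17 family was 2109 and 737 units in the Tn+ pools, against 82.9 units in the Tn- pool. That of the miR-19 family was 122 and 52.4 units in the Tn+ pools, against 13.9 units in the Tn- pool.

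As a rule of size, a probe was counted when signal + 1 in each Tn+ pool was at least 2 times that in the Tn- pool. All 6 members met it, beside 12.0% of all 566 probes. Most of those 566 were at the floor throughout, and among the 58 probes with a mean of at least 10 units, a filter that all 6 members passed through their Tn+ values, 75.9% met it. Meeting the rule was thus common among well-measured probes. The median log2 ratio of the mean Tn+ to the Tn- value on log2(signal + 1) was 3.94 for the miR-17 family and 2.37 for the miR-19 family, beside 3.17 for the 58 probes and -0.02 for all 566.

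When log2(signal + 1) of all 566 probes was fitted with limma, with Benjamini-Hochberg adjustment, 0 probes (0%) passed an adjusted p of 0.05, and 63 had an unadjusted p under 0.05. Of the members, 5 of 6 were among those 63, but none passed the adjustment. The fitted log2 ratio was 5.66 (SE 1.06, adjusted p = 0.305) for miR-106b, whose Tn- value is the floor, and 4.04 (SE 0.80, adjusted p = 0.305) for the miR-20a and miR-20b probe. For miR-93 it was 3.83 (SE 0.48, adjusted p = 0.248), the smallest adjusted p among the members. miR-19a had 3.52 (SE 0.92, adjusted p = 0.428), the miR-106a and miR-17 probe 3.11 (SE 1.01, adjusted p = 0.542), and miR-19b 1.23 (SE 0.24, adjusted p = 0.305). The fit has 1 residual degree of freedom, from the Tn+ pools, and assumes that Tn- serum varies likewise.

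Restricting the fit changed the calls. Over the 259 probes that left the floor in any pool, 11.2% were called and so were 4 members, miR-106b, miR-20a with miR-20b, miR-93 and miR-19a, with limma adjusted p = 8.95e-05, 0.00999, 0.0136 and 0.0254. Over the 58 probes with a mean of at least 10 units, 55.2% were called and so were 5 members, all but miR-19b (limma adjusted p = 0.449). These fits gave every probe the same SE, 1.15 and 1.34, so that their calls follow the size of the ratio, and both filters favour probes with high Tn+ signal. With 3 grid steps in place of the floor over all 566 probes, 7.60% were called higher in Tn+ serum and so were 5 members, again all but miR-19b. That fit also gave each member the same SE, 0.648, so that its calls of members follow the size of the ratio too.

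**Figure D2:**
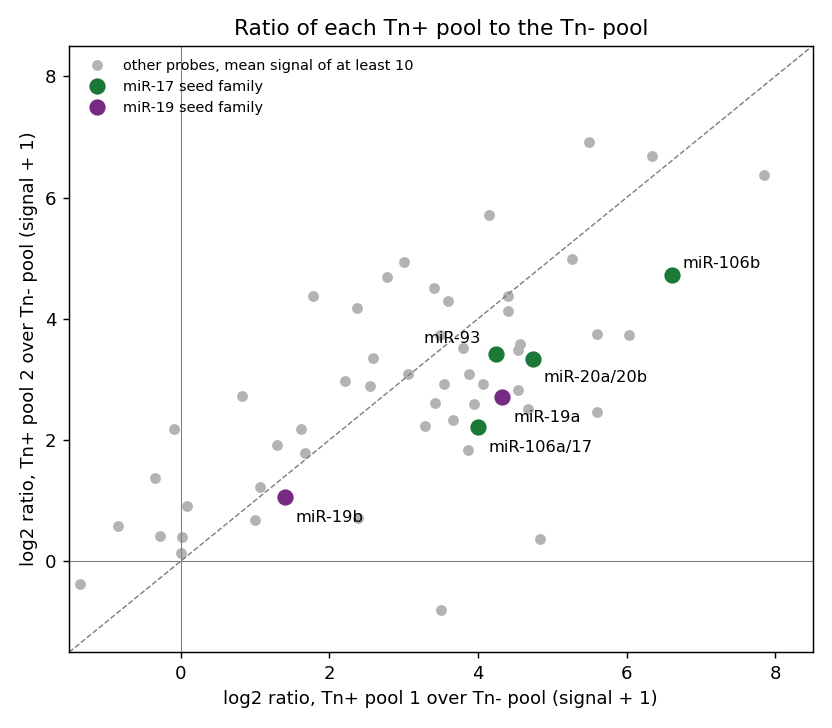
Log2 ratio of signal + 1 to the Tn- pool, for Tn+ pool 1 (x axis) and Tn+ pool 2 (y axis), 1 point per probe with a mean of at least 10 units, with a dashed line of equal ratios. The members lie below the line, from 1.40 and 1.06 for miR-19b to 6.60 and 4.72 for miR-106b, within the range of the other probes.

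How far the members differed from the Tn- pool depended on how the pools were scaled. Scaling to equal median of ratios over the 60 probes off the floor in every pool removed a 3.18-fold shift between Tn+ and Tn- serum, scaling to the 100 highest probes a 6.06-fold shift, equal totals a 10.4-fold shift, and equal totals without miR-451 a 7.48-fold shift. miR-106b had a log2 ratio of 4.43, 3.67, 2.99 and 3.41 under these 4 scalings, and miR-93 had 2.62, 1.86, 1.20 and 1.61, both against a scaled floor. The miR-20a and miR-20b probe kept a positive ratio in both Tn+ pools under each of them, with means of 2.38, 1.46, 0.69 and 1.16.

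The remaining members came closer to 0 or crossed it. miR-19a had 2.04, 1.17, 0.44 and 0.89, with a ratio of 0.00 in Tn+ pool 2 under the last scaling. The miR-106a and miR-17 probe had 1.47, 0.55, -0.22 and 0.25, and Tn+ pool 2 lay below the Tn- pool under all but the median-of-ratios scaling. miR-19b turned negative under all 4, at -0.34, -1.23, -1.97 and -1.52. Of the members, 4 met the rule of size after median-of-ratios scaling (miR-20a with miR-20b, miR-106b, miR-93 and miR-19a), beside 53.4% of the 58 probes with a mean of at least 10 units. Under the other 3 scalings 2 met it, miR-106b and miR-93, beside 31.0%, 17.2% and 22.4%. Fitted with limma over all 566 probes, 3 members were called higher in Tn+ serum after top-100 scaling, miR-106b (adjusted p = 8.66e-06), miR-93 (adjusted p = 0.0359) and miR-20a with miR-20b (adjusted p = 0.0483), beside 3.36% of all probes. With equal totals miR-106b was called higher (adjusted p = 0.000656), beside 1.59% of all probes, and miR-19b lower (adjusted p = 0.00849), beside 80.2%. Of those 454 lower probes, 307 were at the floor in every pool, where scaling alone makes equal values unequal. The fits after top-100 and equal-total scaling gave each member the same SE, 0.678 and 0.707. Their calls of members thus follow the size of the ratio, not the spread of each probe. No member was called under the other 2 scalings, or under any of the 4 over the 58 probes. Of the probes among those 58 that were 2-fold away from the Tn- pool in either direction, 100% were higher in Tn+ serum as deposited, and 83.8%, 64.3%, 43.5% and 52% after the 4 scalings.

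**Figure D3:**
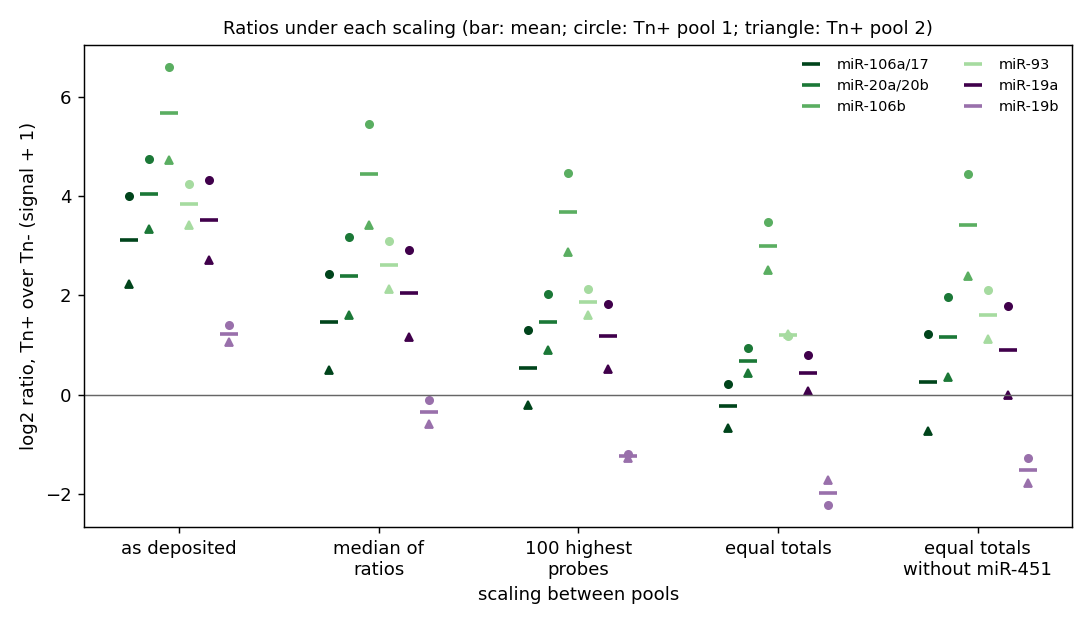
Log2 ratio of Tn+ to Tn- serum (signal + 1) for each member under the deposited scale and 4 scalings between pools, with a bar for the mean, a circle for Tn+ pool 1 and a triangle for Tn+ pool 2. miR-106b is highest throughout (5.66 as deposited, 2.99 with equal totals), and miR-19b falls below 0 in every scaling other than the deposited one.

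Ratios between members within 1 pool do not depend on that scaling, but they do depend on the subtracted background, which is unknown. Since probes can differ in efficiency, only the differences of such a ratio between pools are read. The summed miR-17 family signal was 17.2 and 14.1 times the miR-19 family signal in the Tn+ pools, against 5.95 times in the Tn- pool. The 2 Tn+ pools were close to each other and above the Tn- pool. The Tn- ratio stayed between 4.89 and 7.41 when each member was moved by 1 grid step. miR-19b supplied 73.2% of the miR-19 family signal in Tn- serum, but 23.3% (pool 1) and 42.7% (pool 2) in Tn+ serum. Over miR-19b alone, the miR-20a and miR-20b probe stood at 47.8 and 23.0 in Tn+ serum, beside 4.91 in Tn- serum. Over miR-19a it gave 14.5 and 17.2, beside 13.4. The miR-106a and miR-17 probe was raised less than miR-19a (16.5-fold and 4.77-fold, beside 25.2-fold and 8.04-fold). The higher family ratio thus rested on miR-19b. An exact permutation test of 2 pools against 1 cannot go below p = 0.333 (one-sided), so no such ratio can pass a threshold of 0.05.

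The miRNAs that differ by a single base, miR-19a and miR-19b, did not keep the same ratio in each pool. miR-19a was 3.29 and 1.34 times miR-19b in the Tn+ pools, against 0.366 times in the Tn- pool, where 1 grid step either way gives 0.235 to 0.527. The ratio of deposited values was thus higher in both Tn+ pools than in the Tn- pool, where miR-19a was near the floor. As a share of the family signal, miR-19a made up 76.7% and 57.3% in the Tn+ pools, against 26.8% in the Tn- pool.

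Within the miR-17 family, the miR-20a and miR-20b probe was 2.70 and 3.52 times the miR-106a and miR-17 probe in the Tn+ pools, against 1.63 times in the Tn- pool. It supplied most of the family signal everywhere, 64.7% and 69.9% in the Tn+ pools, against 60.4% in the Tn- pool. The miR-106a and miR-17 probe supplied 24.0% and 19.9% in the Tn+ pools, against 37.0% in the Tn- pool. The genes of miR-19a and miR-20a are neighbours on chromosome 14. The ratio of the miR-20a and miR-20b probe to miR-19a was 14.5 and 17.2 in the Tn+ pools, against 13.4 in the Tn- pool, and 1 step either way there gives 10.2 to 19.3. These 3 values could not be told apart at this signal.

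**Figure D4:**
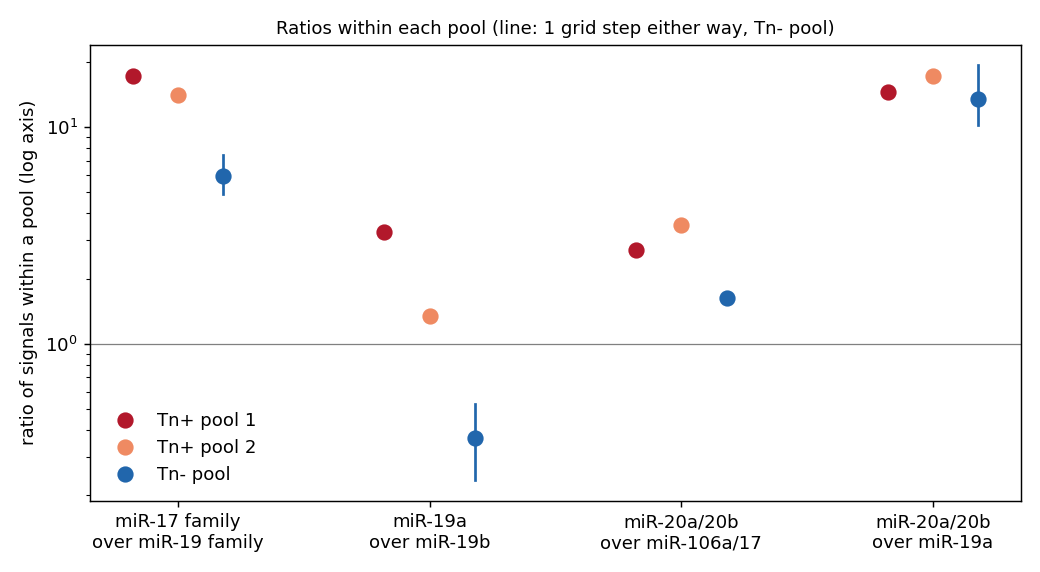
Ratio of signals within each pool (log axis) for 4 pairs, 1 point per pool, with a line on the Tn- pool for 1 grid step either way. That step is not an error limit. In the Tn- pool miR-19b supplies 73.2% of the miR-19 family signal. The miR-17 to miR-19 family ratio (17.2 and 14.1 against 5.95) and the miR-19a to miR-19b ratio (3.29 and 1.34 against 0.366) are higher in both Tn+ pools, while the miR-20a/20b to miR-19a ratio overlaps the Tn- line.

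Probes of the same cluster differed widely in their values. In the miR-17 cluster, miR-18a, whose seed differs from the miR-17 seed, was at the floor in all pools, as were miR-18b and miR-363 of the miR-106a cluster. miR-92a, of the miR-25 seed family, had 7.05 units in Tn+ pool 1 and the floor in Tn+ pool 2, against 3.73 units in the Tn- pool (log2 ratio -0.21, limma adjusted p = 0.895). The members of these 2 clusters had 22.4 to 1364 units in the Tn+ pools.
miR-18a-5p: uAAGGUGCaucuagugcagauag
miR-92a-3p: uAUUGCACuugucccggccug
miR-25-3p: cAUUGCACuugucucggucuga
These 3 sequences show the other seeds of the clusters, again in capitals.

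In the miR-106b cluster the 2 members and their mate differed between the Tn+ pools. miR-25 had 1868 and 5513 units in Tn+ pool 1 and Tn+ pool 2, against 104 units in the Tn- pool (log2 ratio 4.93, limma adjusted p = 0.305). It was thus higher in pool 2, whereas miR-106b and miR-93 were higher in pool 1. The miR-106b signal was 0.108 and 0.00978 of that of miR-25 in the Tn+ pools, an 11.0-fold difference between them. miR-93 was 0.0205 and 0.00386 of miR-25 in the Tn+ pools. In Tn- serum both members were at the floor, and 3 grid steps over miR-25 amount to 0.0311 there, which lies between the miR-106b ratios of the Tn+ pools and above both miR-93 ratios. The panel held no starred or other-arm probe for the 3 clusters.

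**Figure D5:**
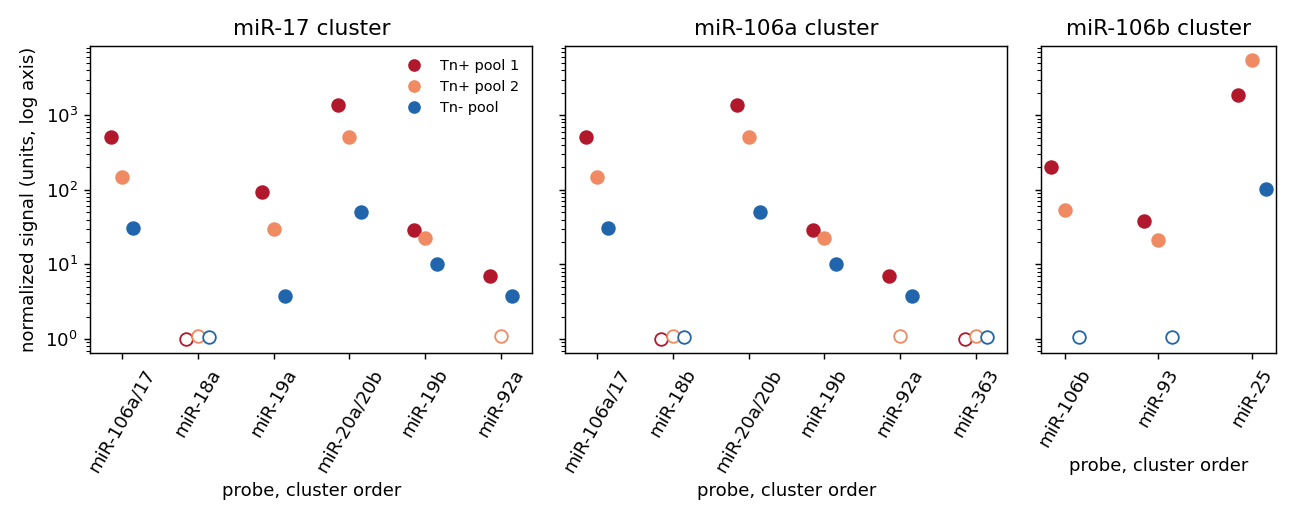
Normalized signal (log axis) along each of the 3 clusters in both Tn+ pools and the Tn- pool, with open circles at the floor and shared probes drawn in both clusters they belong to. miR-18a, miR-18b and miR-363 are at the floor in every pool, and miR-25 is higher in Tn+ pool 2 (5513 units) than in Tn+ pool 1 (1868 units), unlike miR-106b and miR-93.

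No other probe with a mature sequence in RefSeq (442 of 566 probes had one) carried the whole seed of either family. The embryonic miR-290 and miR-302 families carry bases 3 to 8 of the miR-17 seed, shifted by 1 position. Only the 442 probes with a mature sequence could be searched for that core, so relatives among the other probes may be missing. With that core anywhere in bases 2 to 8 there were 8 further probes, miR-105, miR-291a-3p, miR-291b-3p, miR-294, miR-295, miR-302b, miR-302d and miR-350. All but miR-350 were at the floor in every pool, and miR-350, for which the arm carrying the core is an assumption since the probe names none, had 7.05 units in Tn+ pool 1 alone.

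Markers of blood and tissue cells differed between the pools as well. In pooled serum, the number of source cells and the miRNA released by each cannot be told apart. All 4 red cell markers (miR-451, miR-144, miR-486 and miR-16) met the rule of size, and their summed signal was 47188 and 17105 units in the Tn+ pools, against 2132 units in the Tn- pool, where miR-144 was at the floor. miR-451, the erythroid miRNA cut by Ago2 instead of Dicer, had 43043 and 13159 units in the Tn+ pools, against 1856 units in the Tn- pool. The miR-17 family signal was 0.0490 and 0.0560 of that of miR-451 in the Tn+ pools, against 0.0447 in the Tn- pool, so this ratio varied little between pools. The miR-19 family signal was 0.00284 and 0.00398 of that of miR-451 in the Tn+ pools, against 0.00751 in the Tn- pool.

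Other red cell markers gave other ratios. Against miR-16 the miR-17 family stood at 0.808 and 0.489 in the Tn+ pools, against 0.471 in the Tn- pool. Against miR-486 (1058 and 2268 units in the Tn+ pools, against 98.5 units in the Tn- pool) the ratio was 1.99 and 0.325 in the Tn+ pools, on either side of the 0.841 in the Tn- pool. Against miR-144 it was 4.42 and 4.30 in the Tn+ pools, against 76.8 in the Tn- pool, where miR-144 was at the floor and the ratio is to the floor value. The part of red cell miRNA in the members' ratios was not tested. As a share of all signal without miR-451, the miR-17 family held 12.9% and 3.92% in the Tn+ pools, against 3.53% in the Tn- pool, and the miR-19 family 0.747% and 0.278%, against 0.593%. Tn+ pool 2 and the Tn- pool were thus close in the miR-17 share, and Tn+ pool 1 stood apart.

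The other marker lists likewise summed to more signal in each Tn+ pool. How specific the listed probes are to their cell types was not tested. Of the 4 probes on the myeloid list, miR-142-3p and miR-21 met the rule of size while miR-223 and miR-142-5p did not. The list summed to 1059 and 589 units in the Tn+ pools, against 291 units in the Tn- pool, with miR-142-3p at the floor there. The lymphocyte probes miR-150 and miR-342-3p met it and miR-155 was at the floor in all pools, with sums of 419 and 137 units against 26.4. The platelet and endothelial probes miR-126-3p and miR-191 both met it, with 66.0 and 50.2 units against 2.16, the floor for each. The hepatocyte miRNA miR-122 had 47.3 and 22.4 units against the floor. Of 7 epithelial probes, miR-429, miR-203 and miR-205 met it, miR-200b did the opposite, and miR-200a, miR-200c and miR-141 were at the floor in all pools, with sums of 45.7 and 46.5 units against 13.9. Their part in the members' ratios was not tested. Against miR-223, a miRNA of neutrophils (719 and 225 units in the Tn+ pools, 136 units in the Tn- pool), the miR-17 family stood at 2.93 and 3.28 in the Tn+ pools, against 0.608 in the Tn- pool.

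Probes with a like pattern were sought among the 52 other probes with a mean of at least 10 units that were above the floor in at least 2 pools. Likeness was the Euclidean distance between the 2 log2 ratios of each probe over the 3 pools, and the 2 nearest were taken. They were miR-150 (distance 0.36) and let-7d (0.37) for the miR-106a and miR-17 probe. For the miR-20a and miR-20b probe they were miR-122 (0.25) and miR-23a (0.30), and the same probes were nearest to miR-93 (0.30 and 0.37). miR-19a was nearest to miR-451 (0.24) and miR-142-3p (0.33). miR-106b had no close neighbour, with miR-15a at 1.15 and miR-21 at 1.36. miR-19b was nearest to miR-2135 (0.37) and miR-1944 (0.55), with 112.7 and 126 units in the Tn+ pools against 53.3 for miR-2135, and 32.1 and 25.6 units against 15.6 for miR-1944. Tn- serum left let-7d, miR-122 and miR-142-3p at the floor, as it did the members miR-106b and miR-93, so distances that involve any of these depend on the value of the floor.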

How the data were processed

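Serum miRNA was profiled with NanoString's nCounter miRNA assay for mouse (v1.5), in which barcoded probes are hybridized and counted without amplification. Per the labels' protocols, RNA from 200 µL of pooled serum was eluted in 20 µL, of which about 30 ng went into a hybridization of 16.5 h. The deposited values are a normalized signal that the authors produced in nCounter Advanced Analysis, according to the design text. The submitters' processing notes name R 4.4. How background, scaling and the floor were set is not given in the sources used here. A second deposited table held the same signal (1698 of 1698 values equal). Pools were grouped by their titles.

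Here log2(signal + 1) of all probes was fitted with limma 3.58.1 in R 4.3.3 (lmFit, eBayes, no covariate, Benjamini-Hochberg), after a test on simulated data. That test set a limit only on how fitted log2 ratios followed planted ones, not on calls or p-values. Python 3.11.15 was used otherwise. Alternatives were 4 scalings, pseudocounts of 0.5 and 5, 3 grid steps in place of the floor, 2 filters on low values, and leaving out each Tn+ pool. Seeds were read from RefSeq. Probe names give no arm, so the arm of each member was taken from common usage. The members, clusters and marker lists were chosen with earlier results of these data known. Named miRNAs were the members, all probes of the 3 clusters, seed relatives, the 2 nearest probes per member and the markers.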

Additional observations from a re-analysis of the deposited data

How the results depend on the processing

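No paired analysis was possible because nothing in the labels pairs a Tn+ pool with the Tn- pool. The count of probes past limma's adjusted threshold, 0 as deposited, was 336, 369, 463 and 390 after median-of-ratios, top-100, equal-total and equal-total scaling without miR-451. Of the calls in each of these, 307 were probes at the floor in every pool, which scaling makes unequal by construction. It was 43 with 3 grid steps in place of the floor, 29 over probes off the floor in any pool, 32 over probes with a mean of at least 10 and, with that filter and the 4 scalings (added after seeing the data), 0, 0, 0 and 1. The count of probes at least 2-fold higher in each Tn+ pool, 68 as deposited, was 33, 18, 10 and 13 after the 4 scalings (31, 18, 10 and 13 with the filter), 44 with a pseudocount of 5 and 44 over probes with a mean of at least 10. With a single Tn+ pool it was 96 to 120. For the members this count was 6 as deposited, 5 with a pseudocount of 5, 4 after median-of-ratios scaling and 2, 2 and 2 after the last 3 scalings. With a single Tn+ pool it stayed at 6, and limma, left with no residual degrees of freedom, gave no test.

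The median log2 ratio of the miR-17 family was 2.50, 1.66, 0.94 and 1.38 after the 4 scalings (3.38 to 4.49 with a single Tn+ pool), and that of the miR-19 family 0.85, -0.029, -0.77 and -0.31 (1.89 to 2.86). The ratio of the miR-106a and miR-17 probe reversed with equal totals (-0.22, with and without the filter), and that of miR-19b reversed under all 4 scalings (-0.34, -1.23, -1.97 and -1.52, with and without the filter). Why these scalings differ was not tested. The log2 difference in the family ratio within pools, 1.39, was 1.24 to 1.53 with a single Tn+ pool and 1.31 with 3 grid steps in place of the floor. The low signal of the Tn- pool (18 probes of at least 20 units) limits every ratio.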
